A study of Homo sapiens with 30 samples.

Results

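The comparison described here asks what MEF2C adds when the intracellular domain of NOTCH1 (ICN) is induced in LOUCY, a human cell line from an early T cell precursor acute lymphoblastic leukemia (ETP-ALL). It is the difference of 2 doxycycline (dox) effects, the effect in a line with dox-inducible MEF2C and ICN (M_ICN+ minus M_ICN-) less the effect in a line with ICN alone (ICN+ minus ICN-). It uses 12 of the 30 arrays in the series, 3 per group, and a further 6 arrays of the line with MEF2C alone (M+ and M-) serve as a comparison. All of these cells are LOUCY, were grown in medium without stroma, and carry a dox-inducible construct, and the groups marked - received no dox. The study's methods describe the MEF2C construct as a lentiviral, codon-optimized human MEF2C that lacks the β TAD domain. How the ICN lines were made, whether they are bulk lines or clones, and how long ICN was induced are not given in the sources used here. Line and construct differ together, so a difference between the 2 ICN lines cannot be told apart from the effect of MEF2C by design alone. No source says that the 3 arrays of a group came from separate cultures, so the p-values below measure only the spread between arrays, which may be technical.

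ICN is the fragment of the NOTCH1 receptor that is released inside the cell after ligand binding, enters the nucleus and joins the DNA-binding protein RBPJ and a MAML coactivator to switch on genes such as *HES1*, *HEY1* and *DTX1*. In the thymus this signal drives early progenitors into the T cell lineage. MEF2C is a DNA-binding factor of the MADS-box family that acts in muscle, in B cell development and in early lymphoid progenitors, and its activity is held back by class IIa histone deacetylases.

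Each array gives 1 log2 expression value per probe set, and a gene is represented by its probe set of highest mean, which leaves 19775 genes. Values ran from 1.4 to 13.93, and array medians from 4.75 to 4.84. Arrays of the same group correlated at 0.9936 to 0.9973 across probe sets. The T cell and ETP-ALL markers *CD3D* (11.69 to 13.11 over the 12 arrays), *LCK* (9.74 to 11.73), *HHEX* (10.02 to 10.95) and *LYL1* (8.16 to 9.78) were well expressed. The T cell markers *CD2* (3.31 to 3.85) and *CD5* (4.54 to 6.78) and the progenitor marker *CD34* (5.13 to 5.72) were lower. Of the B cell markers *MS4A1* read 3.45 to 4.52, *PAX5* 4.87 to 5.21 and *CD79A* 5.98 to 8.42. Of the myeloid markers *MPO* read 3.29 to 4.08, *CD14* 3.41 to 3.77, *CSF1R* 4.31 to 4.81 and *LYZ* 2.84 to 5.28. The erythroid markers *HBB* and *ALAS2* read 5.58 to 6.67 and 4.63 to 4.98. Of the stromal markers *LUM* read 1.86 to 2.27 and *DCN* 4.57 to 5.28, while *COL1A1* read 6.79 to 7.37.

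MEF2C and NOTCH1 are given by every probe set annotated to that gene alone. The study describes a single *MEF2C* probe set as also covering the cloned construct and the others as lying outside it, which then read the endogenous transcript, but its text does not give their identifiers. It counts more *MEF2C* probe sets than the 3 read here, so the probe set that covers the construct may not be among these. The dimmest *MEF2C* probe set read 7.65, 7.88 and 7.80 in ICN-, 7.14, 7.30 and 7.47 in ICN+, 7.59, 7.53 and 7.62 in M_ICN- and 8.15, 8.28 and 8.31 in M_ICN+. Its difference of dox effects was 1.14 ± 0.20 (SE, 3 arrays per group, limma adjusted p = 0.00039), and the M_ICN+ arrays lay above all others of the ICN lines. In the line with MEF2C alone it rose by 0.53 (adjusted p = 0.025), and the M+ arrays, at 8.36, 8.09 and 8.17, overlapped those of M_ICN+. The other *MEF2C* probe sets went the opposite way. At the brightest the M_ICN+ arrays read 7.88, 7.85 and 7.87 against 10.10, 10.10 and 10.03 in M_ICN-, while ICN+ (10.06, 10.05 and 10.04) lay just under ICN- (10.31, 10.34 and 10.27). The difference was -1.95 ± 0.07 there and -1.96 ± 0.09 at the remaining one (adjusted p = 3.7e-16 and 2.3e-14). In the line with MEF2C alone these probe sets fell by 1.08 and 1.04. For *NOTCH1*, the dimmer probe set rose in both ICN lines, by 0.56 in ICN+ (adjusted p = 0.013) and by 0.81 in M_ICN+ (adjusted p = 0.00035), with a difference of 0.24 ± 0.21 (adjusted p = 0.60). At the brighter *NOTCH1* probe set the effects were 0.01 and 0.07 (adjusted p = 0.96 and 0.66). Whether the 2 lines make the same amount of ICN protein was not tested.

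Of 19775 genes, 802 (4.06%) had a larger dox effect in the M_ICN line than in the ICN line and 1202 (6.08%) had a smaller one, at an adjusted p under 0.05. These are differences of effects, and a gene can count as higher because it rose more or because it fell less. In 2003 of the 2004 called genes the induced M_ICN+ arrays, each less the M_ICN- mean, did not overlap the ICN+ arrays, each less the ICN- mean, as was so in 40.3% of all genes. The median difference over all genes was 0.04. Taken separately, ICN induction raised 1273 genes (6.44%) and lowered 1862 (9.42%), and joint induction raised 1154 (5.84%) and lowered 2165 (10.9%). These 2 effects share no array. They had 408 raised genes in common (32.1% of the first list and 35.4% of the second) and 920 lowered ones (49.4% and 42.5%), while 126 genes rose with ICN and fell with both factors and 82 did the reverse. The 1273 genes raised by ICN had a median effect of 0.42 there and of 0.12 in the M_ICN line, and the 1862 lowered genes had medians of -0.39 and -0.23. Because these genes were chosen on their ICN effect, the first value of each pair is set in part by the choice.

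**Figure D1:**
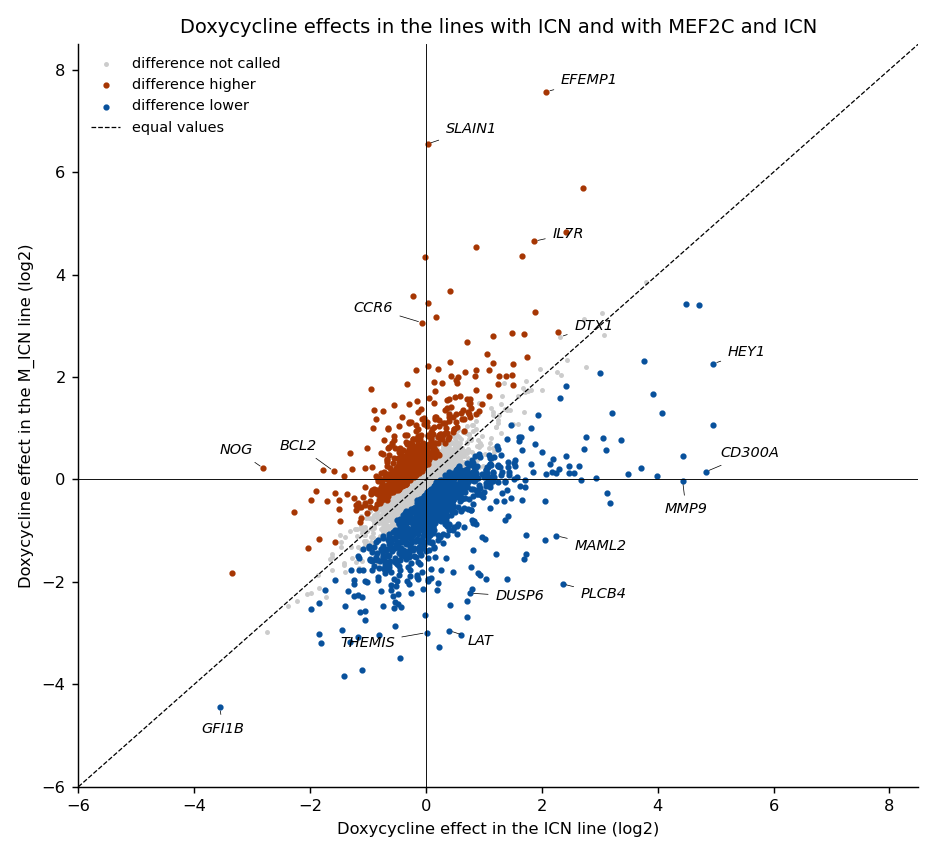
Each point is 1 of 19775 genes, with the dox effect in the ICN line on the x axis and in the M_ICN line on the y axis, both on the log2 scale. Brown and blue points are the 802 genes higher and 1202 lower in the difference, and the dashed line marks equal effects. *EFEMP1* and *SLAIN1* lie highest above that line, and *CD300A* and *MMP9* lie far to the right near a M_ICN effect of 0.

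The largest positive difference was that of *SLAIN1*, which encodes a protein of growing microtubule ends. It read 2.16, 2.16 and 2.37 in ICN-, 2.28, 2.17 and 2.34 in ICN+, 2.29, 1.95 and 2.14 in M_ICN-, and 8.66, 8.76 and 8.59 in M_ICN+. Of the ICN lines only M_ICN+ stands out, and the difference was 6.52 ± 0.18 (adjusted p = 3.4e-18). MEF2C alone raised it from 2.03, 2.18 and 2.21 to 4.09, 4.63 and 4.56, an effect of 2.29.

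Other genes that were near the bottom of the scale in ICN-, ICN+ and M_ICN- appeared in M_ICN+. *CCR6*, the receptor for the chemokine CCL20, read 2.49, 2.49 and 2.35 in ICN+ and 5.77, 5.83 and 5.01 in M_ICN+. The effect of MEF2C alone on it was -0.02 (adjusted p = 0.97), and its difference was 3.13 ± 0.22. The noncoding RNA *LOC101927432* had the same pattern, with 2.66, 2.66 and 2.95 in ICN+, 7.42, 7.18 and 7.12 in M_ICN+, and an effect of 0.08 for MEF2C alone. *ADGRD1*, an adhesion G protein-coupled receptor, reached 6.03, 5.84 and 5.82 in M_ICN+ from 2.72, 2.52 and 2.90 in M_ICN- (difference 3.02 ± 0.26, MEF2C alone 0.51, adjusted p = 0.12). In these genes the M_ICN+ arrays did not overlap any other group of the ICN lines. Named genes were chosen for large differences without overlap, so this separation follows in large part from the choice.

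By contrast, *COBL*, *KYNU* and *SCG2* also rose strongly with MEF2C alone. *COBL*, an actin nucleator, had a dox effect of -0.22 in the ICN line, 3.59 in the M_ICN line and 3.08 in the MEF2C line. For *KYNU*, the tryptophan-degrading enzyme kynureninase, the effects were 0.86, 4.53 and 3.21. *KYNU* started lower in M_ICN- than in ICN-, by -1.73, and M_ICN+ minus ICN+ was 1.95. *SCG2*, a protein of secretory granules, rose less with ICN present: its effects were 0.03, 3.45 and 5.44, and the test of that shortfall gave -2.03 (adjusted p = 5.8e-07). *SHISA2*, whose product retains growth factor receptors in the endoplasmic reticulum, started high in both ICN lines, though lower in M_ICN- than in ICN- by -0.89. It rose from 9.04, 9.15 and 9.08 to 12.80, 12.75 and 12.77 in the M_ICN line (difference 3.27 ± 0.14, M_ICN+ minus ICN+ 2.38).

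*NOG* and *BCL2* were lowered by ICN and not called in joint induction (effects 0.22 and 0.16). *NOG*, which encodes the BMP antagonist noggin, fell from 7.98, 7.81 and 7.79 in ICN- to 4.75, 5.23 and 5.17 in ICN+, and read 7.86, 7.84 and 7.87 in M_ICN- and 8.14, 8.11 and 7.98 in M_ICN+. The difference was 3.03 ± 0.15 (adjusted p = 1.1e-13). *BCL2*, an inhibitor of apoptosis, fell from 9.32, 9.27 and 9.18 to 7.84, 7.50 and 7.66 in the ICN line and stayed at 9.19, 9.18 and 9.20 without and 9.39, 9.38 and 9.30 with dox in the M_ICN line. Its difference was 1.75 ± 0.10 (adjusted p = 1.0e-12) and MEF2C alone raised it by 0.87. Among its 4 probe sets, 2 were called higher and 0 lower.

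Beside *KYNU* and *SHISA2*, several genes of positive difference started lower in the M_ICN line. *EFEMP1*, which encodes the matrix protein fibulin-3, read 9.47, 9.54 and 9.39 in ICN- but 3.81, 4.14 and 4.13 in M_ICN-, and with dox the arrays of the lines overlapped, at 11.80, 11.37 and 11.46 in ICN+ and 11.62, 11.63 and 11.53 in M_ICN+. The difference of effects was 5.49 ± 0.19, while the induced lines differed by 0.05 (adjusted p = 0.83). *IL7R*, the receptor chain for interleukin-7 and a Notch target, went from 8.17, 7.92 and 7.94 to 9.98, 9.85 and 9.81 in the ICN line and from 4.68, 4.68 and 4.87 to 9.44, 9.35 and 9.41 in the M_ICN line. Its difference was 2.78 ± 0.17, and the induced M_ICN level was lower than the induced ICN level by -0.48 (adjusted p = 0.005). *LGMN*, a lysosomal protease, had an uninduced M_ICN minus ICN value of -1.90 (ICN- arrays 4.34, 5.92 and 3.82, M_ICN- arrays 2.80, 2.73 and 2.86) and a difference of 2.97 ± 0.39, and after induction it was higher in M_ICN+ by 1.07 (adjusted p = 0.007). *TMEM158*, *GZMA* and *CD28* had uninduced M_ICN minus ICN values of -2.64, -3.36 and -4.12 and differences of 2.40, 2.71 and 1.64. Between the induced lines *GZMA* and *CD28* were still lower in M_ICN+ (-0.64 and -2.49), while *TMEM158* was not called (-0.24, adjusted p = 0.14).

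**Figure D2:**
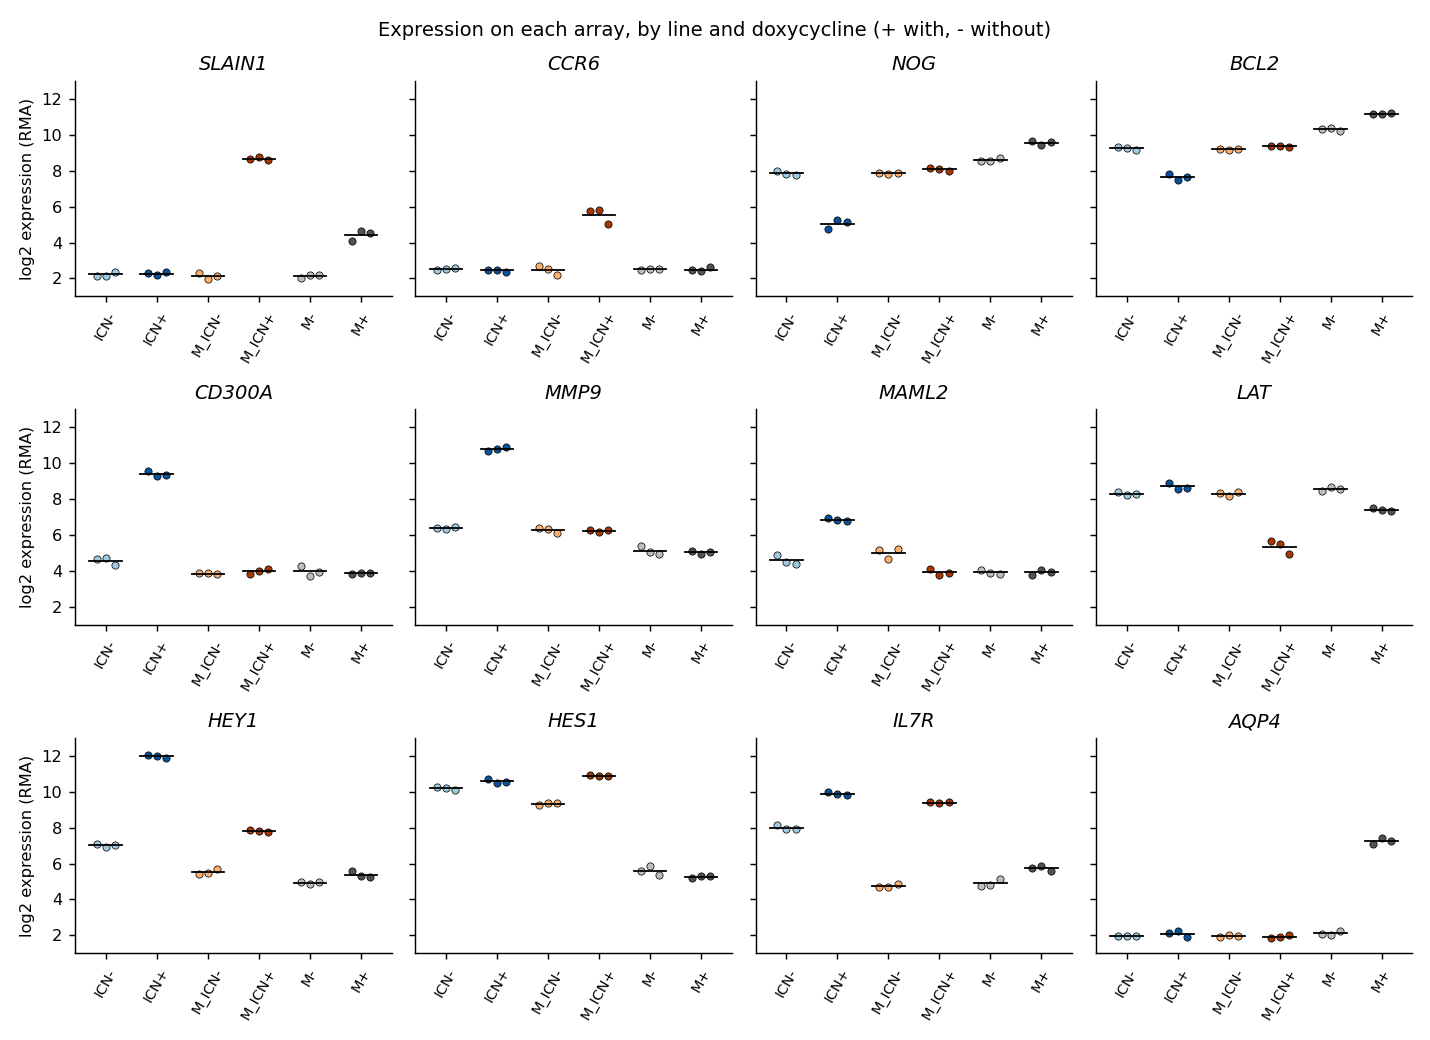
Log2 expression on each array (points) and group mean (bar) of 12 genes, for the lines with ICN, with MEF2C and ICN (M_ICN) and with MEF2C alone (M), without (-) and with (+) dox. *SLAIN1* and *CCR6* stand out in M_ICN+, *CD300A* and *MMP9* in ICN+, *AQP4* in M+, and *IL7R* starts lower in M_ICN- than in ICN-.

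The uninduced lines were compared to show how far such starting levels reach. M_ICN- minus ICN- called 737 genes higher (3.73%) and 1019 lower (5.15%), with a median of -0.00 over all genes. After induction, M_ICN+ minus ICN+ called 2070 genes higher (10.5%) and 2466 lower (12.5%). Of the genes called in the difference, 568 of the 802 higher and 799 of the 1202 lower were not called between the uninduced lines.

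Among the 12 genes with the largest negative difference, 8 rose with ICN by 3.12 to 4.95 and had effects of -0.47 to 1.06 in the M_ICN line. The first of these was *CD300A*, an inhibitory receptor of leukocytes. Its arrays read 4.67, 4.71 and 4.36 in ICN-, 9.59, 9.30 and 9.34 in ICN+, 3.87, 3.90 and 3.81 in M_ICN-, and 3.84, 4.02 and 4.14 in M_ICN+, a difference of -4.69 ± 0.21 (adjusted p = 2.1e-14). A second probe set gave -3.84 and the remaining one 0.34 (adjusted p = 0.26). *MMP9*, a secreted gelatinase, rose from 6.39, 6.32 and 6.43 to 10.71, 10.80 and 10.92 in the ICN line and read 6.39, 6.33 and 6.11 without and 6.27, 6.20 and 6.27 with dox in the M_ICN line. Its difference was -4.46 ± 0.15 (adjusted p = 2.8e-16).

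*TMEM100*, a membrane protein, showed the same pattern at a low baseline, with 2.19, 2.18 and 2.18 in ICN-, 6.17, 6.16 and 6.16 in ICN+, and 2.46, 2.33 and 2.40 in M_ICN+. The remaining members were *FBXO2*, a ubiquitin ligase subunit that recognizes glycoproteins (difference -3.97), the chitinase-like protein *CHI3L2* (-3.90), the transglutaminase *TGM5* (-3.65), the noncoding RNA *CCDST* (-3.49) and *ST8SIA1*, the enzyme that makes ganglioside GD3 (-3.38). The effects of MEF2C alone on these 8 genes ran from -0.58 to 0.12, and of them only that on *TGM5* was called, at -0.58 (adjusted p = 0.0011). *FBXO2*, *CCDST* and *ST8SIA1* have 2 probe sets each, of which 1 was called lower and the other was not called. In the 8 genes the ICN+ arrays did not overlap any other group of the ICN lines. They were named for large differences without overlap, so this follows in large part from the choice.

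The other genes of large negative difference fell upon joint induction. *PLCB4*, a phospholipase C, rose from 5.64, 5.50 and 5.56 to 8.08, 7.78 and 7.92 with ICN and fell from 7.06, 7.03 and 7.12 to 5.31, 5.06 and 4.73 with both factors (difference -4.40 ± 0.22). *MYT1L*, a zinc finger factor of neurons, rose by 0.61 with ICN and fell by 3.03 with both, and 2 of its 4 probe sets, the brighter ones, were called lower. *COL15A1* (collagen XV) and *MMRN1* (multimerin 1, a factor V-binding protein of platelets and endothelium) fell by 3.28 and 2.69 with both factors and by 2.25 and 2.33 with MEF2C alone.

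Other responses to ICN kept their direction in joint induction. *GFI1B*, a repressor of erythroid and megakaryocytic progenitors, fell by 3.56 with ICN and by 4.45 with both, and its difference was called (-0.89). The hemoglobin gene *HBD* fell by 2.74 and 2.97 and the ciliary gene *RSPH1* by 2.39 and 2.48, with differences of -0.23 and -0.10 (adjusted p = 0.49 and 0.88). *RHEX*, a regulator of erythropoietin signaling, and the circadian gene *PER3* fell by 3.35 and 2.27 with ICN and by 1.82 and 0.64 with both, and those differences were called (1.53 and 1.63). Of the genes that ICN raised most, the amino acid transporter subunit *SLC3A1* rose by 4.49 and 3.43, and its difference was called (-1.07). A probe set annotated to an immunoglobulin heavy chain variable segment, which may also read related segments, rose by 4.72 with ICN. The strongest falls with both factors beside *GFI1B* were those of *CD52* (-3.84), a lymphocyte surface glycoprotein, *ANGPT1* (-3.72), the ligand angiopoietin-1, *ACSL6* (-3.49), a fatty acid activating enzyme, and *EMP3* (-3.19), a membrane protein, against -1.41, -1.11, -0.44 and -1.81 with ICN.

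Known Notch target genes did not respond as a block. Of 23 measured, 4 were higher and 4 lower in the difference, with a median of 0.10. Over all genes 4.06% were higher and 6.08% lower, and the count of every list below is to be read against these shares. *HEY1*, a repressor of the hairy and enhancer of split family, rose from 7.11, 6.92 and 7.02 to 12.06, 11.97 and 11.91 in the ICN line but from 5.44, 5.49 and 5.70 to 7.86, 7.80 and 7.76 in the M_ICN line, a difference of -2.70 ± 0.15 (adjusted p = 7.1e-13). *HES1*, another repressor of that family, moved the other way: it went from 10.27, 10.23 and 10.08 to 10.72, 10.50 and 10.56 with ICN and from 9.27, 9.38 and 9.36 to 10.95, 10.90 and 10.86 with both, a difference of 1.17 ± 0.14 (adjusted p = 1.6e-06). Of 3 *HES1* probe sets 2 were called higher and 0 lower. The induced groups did not overlap in either gene.

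Other targets rose in both lines and were not called in the difference. *DTX1*, a ubiquitin ligase of the pathway, rose by 2.31 and 2.78 (difference 0.47 ± 0.25, adjusted p = 0.33), *FJX1* by 1.72 and 1.92 (0.20 ± 0.23), and *SHQ1*, a ribonucleoprotein assembly factor, by 0.75 and 0.78 (0.03 ± 0.09). The remaining called targets were *DTX4* (0.90) and *HES6* (0.48), higher, and *IGF1R* (-0.64), *RHOU* (-0.59) and *TRIB2* (-0.46), lower. *HES6* was lower in the M_ICN line both without dox (-0.72) and with it (-0.24, adjusted p = 0.017). *NOTCH3* was not called at its brightest probe set (0.07), but at its dimmer one it rose by 1.54 with ICN and was lower in the difference (-1.22, adjusted p = 2.5e-05), and with the most variable probe set of each gene 5 targets were lower. *MYC*, a target in many T cell leukemias, read 2.58 to 3.12 on all 12 arrays.

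Notch targets differed between the lines before dox was added. In M_ICN- against ICN-, 0 of the 23 were higher and 10 were lower, against 3.73% and 5.15% of all genes. *HES1* was nevertheless far above the line without ICN in both, since M- read 5.56, 5.84 and 5.36. *HEY1* read 5.0, 4.87 and 4.96 in M-, below both. Whether the ICN constructs were active without dox was not tested. After induction, 2 of the 23 targets were higher and 9 lower in M_ICN+ than in ICN+, against 10.5% and 12.5% of all genes.

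Among 30 Notch receptors, ligands and machinery genes, 0 were higher and 5 lower in the difference (median -0.06). The largest was *MAML2*, a coactivator of the ICN complex, which rose from 4.87, 4.53 and 4.41 to 6.94, 6.82 and 6.80 with ICN and went from 5.18, 4.69 and 5.20 to 4.12, 3.78 and 3.87 with both. Its difference was -3.35 ± 0.18 (adjusted p = 3.7e-13), and the effect of MEF2C alone was -0.01. *KAT2B*, an acetyltransferase, had -0.79 and *MAML3* -0.68, while *RBPJ* (0.16) and *MAML1* (-0.05) were not called. In the MEF2 family list 1 of 17 was higher, *HDAC5* (0.49), and 3 were lower, *MEF2C* at its brightest probe set (another was higher, as above), *HDAC4* (-0.80) and the kinase *SIK3* (-0.35).

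Upstream sequence is shown for genes of the Notch and MEF2 comparisons and for the T cell adaptor gene *LAT*, described in the next paragraph, taken from RefSeq (GRCh38.p14) as the 250 bases before an annotated start. Capitals mark the RBPJ core TGGGAA, searched on both strands and so also as TTCCCA, or, for *MEF2C*, the MEF2 consensus, which reads the same way on both strands. The motifs do not overlap. *HES1* (chr3:194135898-194136147, plus strand) and *LAT* (chr16:28984802-28985051, plus strand) each hold a pair of cores, at 84 and 70 and at 238 and 65 bases before the start (for *LAT* at 1 of 2 starts). Their differences of dox effects had opposite signs, 1.17 and -3.35. For *HES1*, M_ICN- minus ICN- was -0.86 and M_ICN+ minus ICN+ was 0.31. The effect of MEF2C alone was not called at its brightest probe set (-0.33, adjusted p = 0.051) but was called lower at the next brightest (-0.50, adjusted p = 0.0033). *FBXO2* (chr1:11654430-11654679, minus strand) and *TGM5* (chr15:43266929-43267178, minus strand) rose by 4.43 and 3.18 with ICN and had effects of 0.46 and -0.47 with both factors. The windows shown were picked among those that hold a motif. *CD300A*, *CHI3L2*, *CCDST* and *ST8SIA1*, which had the same pattern of effects, hold no RBPJ core in the windows given. *MEF2C* (chr5:88824345-88824594, minus strand), which fell at 2 of the 3 probe sets read here, holds a MEF2 consensus at 175 bases before 1 of its several starts. The windows of its other starts hold none.
HES1: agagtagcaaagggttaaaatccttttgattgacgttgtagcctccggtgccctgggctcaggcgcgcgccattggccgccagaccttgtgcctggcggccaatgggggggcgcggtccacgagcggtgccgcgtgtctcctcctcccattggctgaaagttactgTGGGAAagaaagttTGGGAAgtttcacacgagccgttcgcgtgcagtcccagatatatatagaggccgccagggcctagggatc
LAT: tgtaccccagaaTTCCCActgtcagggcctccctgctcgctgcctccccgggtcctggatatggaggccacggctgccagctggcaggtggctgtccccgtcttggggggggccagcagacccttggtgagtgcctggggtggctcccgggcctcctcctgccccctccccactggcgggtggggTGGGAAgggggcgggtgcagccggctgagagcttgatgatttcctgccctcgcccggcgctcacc
FBXO2: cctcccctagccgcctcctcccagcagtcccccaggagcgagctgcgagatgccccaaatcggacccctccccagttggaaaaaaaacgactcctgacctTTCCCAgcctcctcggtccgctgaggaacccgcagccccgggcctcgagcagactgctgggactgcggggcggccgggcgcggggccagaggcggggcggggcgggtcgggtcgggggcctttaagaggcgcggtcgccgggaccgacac
TGM5: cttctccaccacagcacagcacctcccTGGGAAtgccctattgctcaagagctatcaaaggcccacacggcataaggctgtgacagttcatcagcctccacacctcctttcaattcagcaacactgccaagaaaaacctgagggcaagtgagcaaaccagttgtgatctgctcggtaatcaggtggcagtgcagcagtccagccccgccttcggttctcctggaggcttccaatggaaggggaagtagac
MEF2C: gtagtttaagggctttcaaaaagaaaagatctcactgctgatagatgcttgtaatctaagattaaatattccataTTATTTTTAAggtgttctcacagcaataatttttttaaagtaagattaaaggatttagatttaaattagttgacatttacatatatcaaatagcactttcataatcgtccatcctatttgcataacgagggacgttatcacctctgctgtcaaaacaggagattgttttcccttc
Of 35116 such windows, 20.8% hold the RBPJ core, 2.90% hold at least 2 of them and 2.80% hold the MEF2 consensus. Windows were given for 624 of the 802 genes higher in the difference and 957 of the 1202 lower ones, and for the 12 and 12 named genes in 6 and 9 cases. The RBPJ core was in 18.5% of the windows of higher genes and 20.3% of those of lower genes, and the MEF2 consensus in 2.24% and 2.22%. For the named genes the core was in 1 of 11 windows of the higher and 4 of 16 of the lower ones. The MEF2 consensus was in 0 and 1 of them. For all genes on the array the shares were 20.0% and 2.05%. A match in these letters is a description and not a binding site.

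T cell signaling genes held the largest share of lower differences among the lists. Of 26 measured, 18 were lower and 2 higher, with a median difference of -0.69 against 0.04 for all genes, and the counts were the same under quantile normalization and centring. *LAT*, the adaptor that links the T cell receptor to its downstream signals, read 8.42, 8.24 and 8.29 in ICN-, 8.93, 8.58 and 8.64 in ICN+, 8.36, 8.19 and 8.38 in M_ICN-, and 5.68, 5.48 and 4.93 in M_ICN+. The difference was -3.35 ± 0.17 (adjusted p = 2.5e-13). Both of its probe sets were called lower, and its effect of MEF2C alone was -1.14. *THEMIS*, a regulator of thymocyte selection, fell from 6.25, 6.23 and 5.86 to 2.91, 3.31 and 3.15 in the M_ICN line and had an effect of 0.01 in the ICN line (difference -3.0 ± 0.18).

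*LCK*, the kinase that starts T cell receptor signaling, rose from 10.82, 10.67 and 10.71 to 11.73, 11.73 and 11.68 with ICN and fell from 10.18, 10.09 and 10.20 to 9.88, 9.74 and 9.85 with both (difference -1.32 ± 0.09, adjusted p = 2.4e-11). *FYN*, a kinase of the same family, rose in both lines, by 1.11 and 0.41. *SLA* (-1.76), the phosphatase *PTPN22* (-1.05), the Ras activator *RASGRP1* (-0.98) and *TESPA1* (-0.95) had falls in the M_ICN line of -1.91, -1.48, -1.60 and -1.65. The kinase *ZAP70* had -0.56. The members with a higher difference were the kinase *TXK* (0.79) and the adaptor *SH2D1A* (0.36), which fell by 0.61 with ICN and by 0.24 with both.

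**Figure D3:**
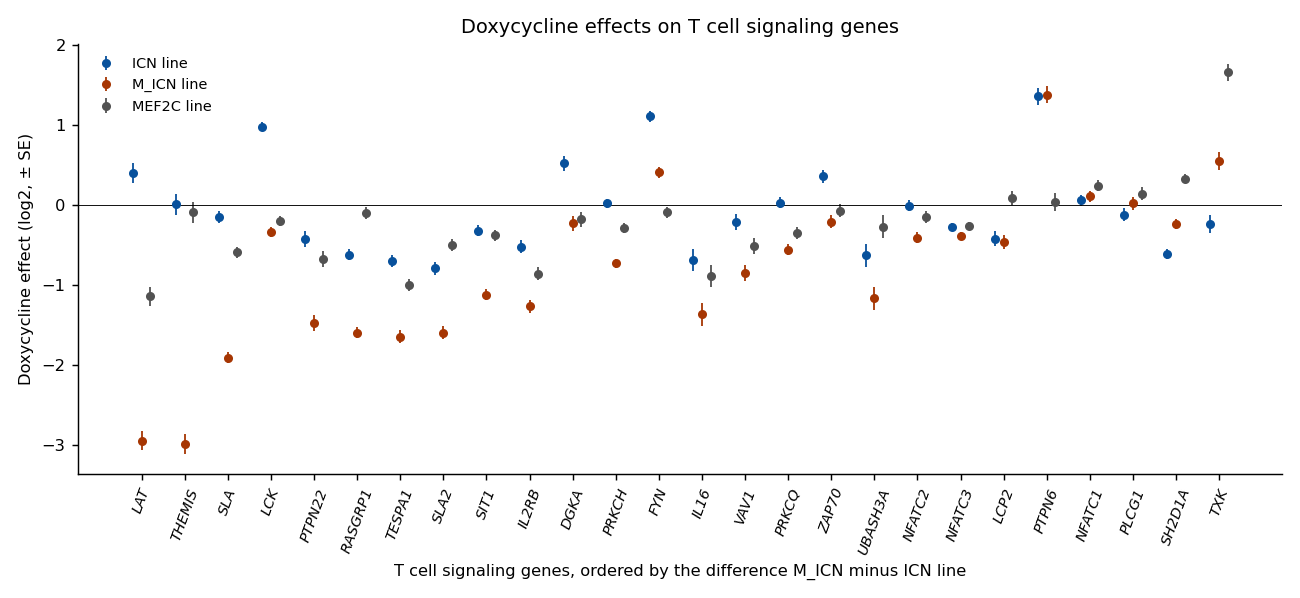
Dox effects with SE on 26 T cell signaling genes (log2, 3 arrays per group) in the lines with ICN (blue), MEF2C and ICN (brown) and MEF2C alone (grey), ordered by the difference between the first pair. *LAT* and *THEMIS* reach about the same effect in the M_ICN line, -2.95 and -2.99, and *LCK* is split between 0.98 and -0.34.

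The T cell receptor chains gave 0 higher and 4 lower of 9 measured (median -0.21). *CD3G* rose by 1.25 with ICN and had an effect of 0.27 with both (adjusted p = 0.10), and *CD3E* rose from 7.68, 7.74 and 7.67 to 8.73, 8.25 and 8.53 with ICN and read 7.58, 7.69 and 7.65 without and 7.62, 7.62 and 7.68 with dox in the M_ICN line (differences -0.98 and -0.81). *TRAT1* (-0.81) and *TRDV3* (-0.71) were the others. *CD3D* rose by 0.74 and 0.55, a difference of -0.19 (adjusted p = 0.19). In such bulk samples, fewer cells that express a gene and less RNA per cell cannot be told apart. T cell surface markers were divided, with 2 higher and 3 lower of 21: *CD69* (-1.49), *CD96* (-0.96) and the thymocyte antigen *CD1B* (-0.80) were lower, and *CD28* and *CD1A* (0.88) higher. For *CD1A*, M_ICN- minus ICN- was -1.27, and M_ICN+ minus ICN+ was not called (-0.39, adjusted p = 0.13). Of 17 T lineage transcription factors 4 were higher, namely *ID3* (0.71), *MYB* (0.40), *ETS1* (0.37) and *GATA3* (0.31), and 2 lower, *TOX* (-0.77) and *ID2* (-0.57). *ID3* was lower in the M_ICN line both without dox (-1.09) and with it (-0.38, adjusted p = 0.0038). With centring the count of higher transcription factors was 2.

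ERK feedback and early response genes had 0 higher and 8 lower of 22 (median -0.29). *DUSP6*, the phosphatase that turns off ERK, rose from 10.34, 10.56 and 10.43 to 11.32, 11.19 and 11.10 with ICN and fell from 9.90, 9.95 and 9.81 to 7.71, 7.55 and 7.73 with both, a difference of -2.98 ± 0.12 (adjusted p = 5.8e-15) at the brightest of 3 probe sets, all called lower. Its effect of MEF2C alone was -2.21. *EGR1*, an early response factor, rose by 1.32 with ICN and had an effect of -0.26 with both (difference -1.59), and *ETV5* fell in both lines, with effects of -1.45 and -2.93 (difference -1.47). *SPRED2* (-0.96) and *SPRY2* (-0.71), inhibitors of the same pathway, were also lower.

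Immunoglobulin chains and surrogate light chains gave 6 higher and 0 lower of 14 (median 0.36), or 4 and 0 (median 0.20) with the most variable probe set of each gene. The variable segment probe set that rose with ICN is not among them. *IGHM*, the μ heavy chain, fell from 11.08, 10.95 and 11.03 to 10.05, 9.91 and 10.05 with ICN and rose from 11.66, 11.54 and 11.64 to 12.26, 12.24 and 12.20 with both (difference 1.64 ± 0.13, adjusted p = 6.4e-10). Its 2 bright probe sets were called in the difference. The 3 others were not, and with ICN they rose, by 2.08, 1.14 and 1.32. *IGLC1* (0.84), *IGLL1* (0.70), *VPREB1* (0.67) and *IGHD* (0.55) were higher because they fell less than with ICN alone or did not fall, with ICN effects of -0.83, -0.76, -1.48 and -1.05. These chains belong to families with similar sequences, so a probe set may read more than 1 of them. Among 18 B lineage transcription factors 4 were higher and 4 lower (median -0.01). *BACH2* read 7.82, 7.65 and 7.76 in ICN+ and 8.59, 8.46 and 8.43 in M_ICN+ (difference 1.38), *EBF1* had 1.12 and *IKZF1* 0.89, while *POU2F2* (-1.43), *POU2AF1* (-1.08), *BCL11A* (-0.61) and *TCF4* (-0.50) were lower and *XBP1* (0.49) higher. The B cell receptor and surface list had 1 higher, *BTK* (0.73, with an uninduced difference between the lines of -3.03), and 5 lower of 21, led by the kinase *SYK* (-1.13). With centring the count of higher ones was 0.

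**Figure D4:**
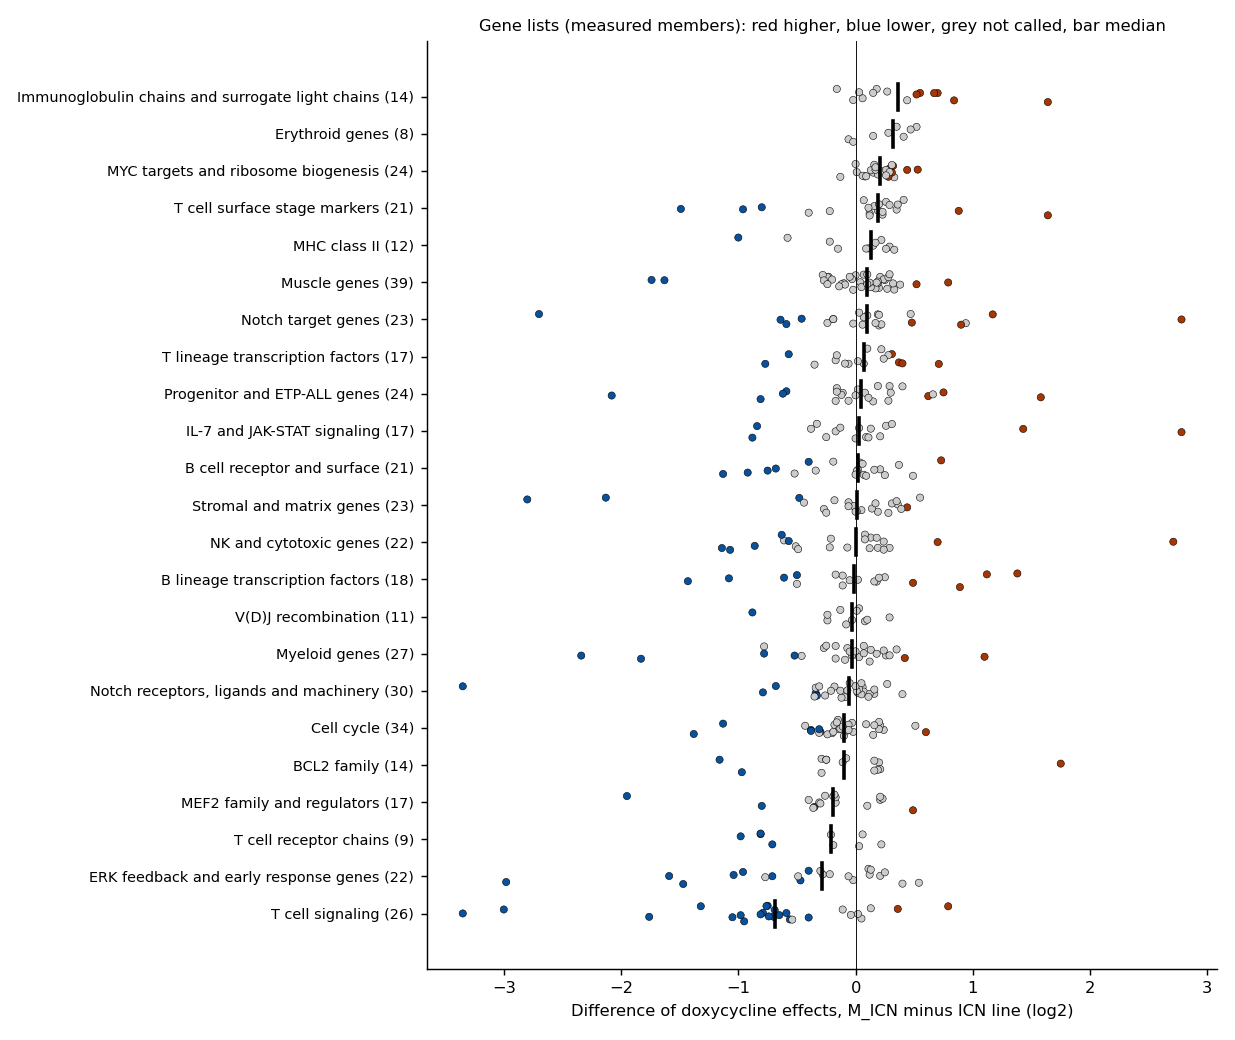
The difference of dox effects (M_ICN minus ICN line, log2) for the measured members of 23 gene lists, ordered by their median (black bar). Brown points are called higher, blue lower and grey not called, and T cell signaling has the lowest median, -0.69.

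Of 17 IL-7 and JAK-STAT genes 2 were higher, *IL7R* and the feedback inhibitor *SOCS2* (1.43), which rose from 8.95, 9.0 and 9.01 to 11.14, 11.07 and 11.06 in the M_ICN line, and 2 lower, *IL2RG* (-0.88) and *PIM1* (-0.84). In the BCL2 family, 1 of 14 was higher, *BCL2*, and 2 were lower. The apoptosis inhibitor *BCL2A1* rose by 1.03 with ICN and had an effect of -0.13 with both, and the BH3-only protein *BMF* rose by 1.24 with ICN and had 0.27 with both (adjusted p = 0.22). MYC targets and ribosome biogenesis genes had 6 higher and 0 lower of 24, at small sizes (0.28 to 0.53, median 0.21), and with centring 2 were called. Of 34 cell cycle genes 1 was higher, *CCND2* (0.60), and 6 lower, among them the inhibitors *CDKN2D* (-1.38) and *CDKN1A* (-1.13) and the proliferation gene *MKI67* (-0.38). Progenitor and ETP-ALL genes split 3 to 4 of 24. *MYCN* fell by 1.98 with ICN and by 0.40 with both (difference 1.58), *LMO2* had 0.62 and *HLF* 0.75, whereas *WT1* (-2.08), *MN1* (-0.81), *GATA2* (-0.62) and *LYL1* (-0.59) were lower.

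Lists of other cell types are set against 4.06% higher and 6.08% lower of all genes. Myeloid genes had 2 higher and 4 lower of 27, with *FCER1G* (-2.34) and *CTSG* (-1.83) the largest. Their summed linear level, a sum of array brightness, was 3650 to 3890 in ICN-, 3220 to 3540 in ICN+, 3130 to 3360 in M_ICN- and 2100 to 2150 in M_ICN+. NK and cytotoxic genes had 2 higher and 5 lower of 22 (7 lower with quantile normalization), and their sum was higher with dox in both lines, at 4000 to 4140 in ICN-, 7510 to 7580 in ICN+, 2360 to 2420 in M_ICN- and 4890 to 5000 in M_ICN+. The members did not rise as a set. Joint induction called 1 higher and 5 lower (median -0.03, highest effect 4.36). ICN induction called 5 higher and 4 lower (median -0.09, highest effect 1.65). Stromal and matrix genes had 1 higher and 3 lower of 23, namely *DCN* (0.44, not called with quantile normalization or centring), *COL6A3* (-2.80), *COL5A2* (-2.13) and *SPARC* (-0.48), and their sum was 1150 to 1260 in ICN+ and 913 to 979 in M_ICN+. Erythroid genes had 0 and 0 of 8 and MHC class II genes 0 and 1 of 12 (*HLA-DMB*, -1.0). The part of such genes in the other results was not tested.

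The last comparison asked whether MEF2C does the same with ICN as without it. The line with MEF2C alone is a further line, so line and construct differ together here too. A departure of this kind cannot be told apart from a difference between lines. Whether the lines make the same amount of MEF2C protein was not tested. MEF2C alone raised 994 genes (5.03%) and lowered 707 (3.58%). With quantile normalization the counts were 884 and 926, and with the ordinary linear model 267 genes were called in all. These arrays are not shared with the difference. Of the genes it raised, 270 were also higher in the difference (27.2% of the 994 and 33.7% of the 802), and of those it lowered, 322 were also lower (45.5% of the 707 and 26.8% of the 1202). The 994 raised genes had a median of 0.39 with MEF2C alone and 0.16 in the difference, where 717 were above 0, and the 707 lowered genes had -0.40 and -0.29, with 573 below 0. These genes were chosen on their effect of MEF2C alone. The first value of each pair is therefore set in part by the choice, and the smaller second value does not by itself show a weaker effect. Across 19775 genes, which are not independent, the difference and the effect of MEF2C alone correlated at r = 0.28. The difference less the effect of MEF2C alone, called the departure from the sum, was higher for 430 genes (2.17%) and lower for 773 (3.91%).

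**Figure D5:**
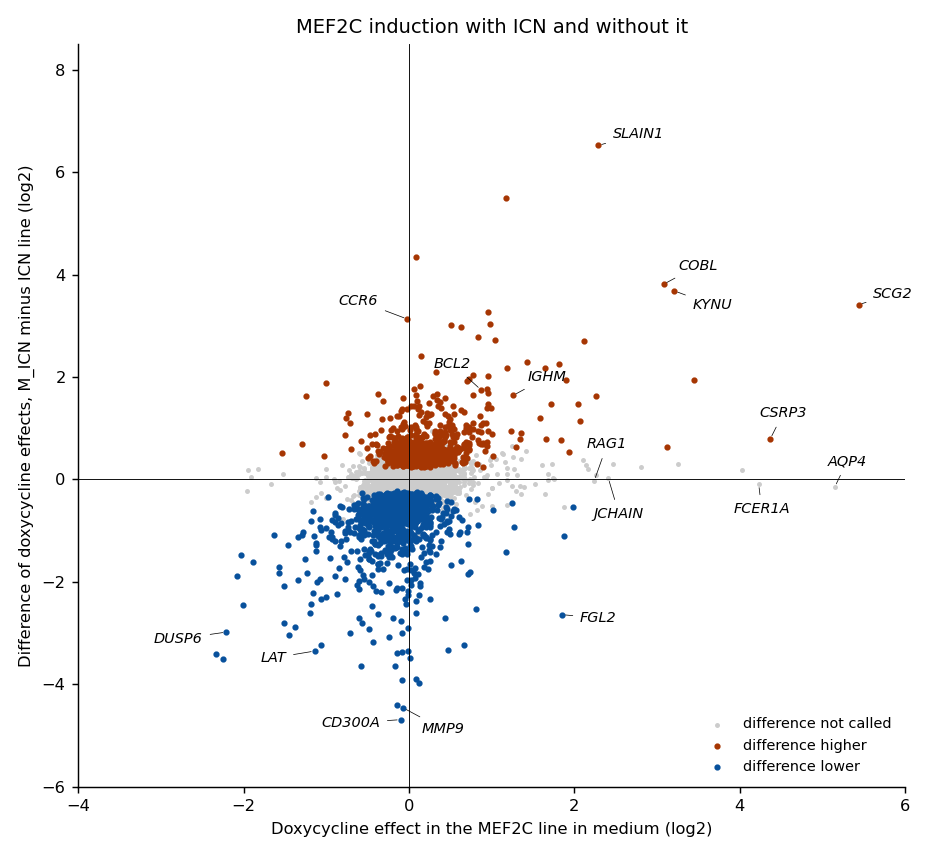
Each point is 1 of 19775 genes, with the dox effect in the line with MEF2C alone on the x axis and the difference of dox effects (M_ICN minus ICN line) on the y axis, both log2. *SCG2*, *COBL* and *KYNU* are high on both axes, *AQP4*, *FCER1A* and *CSRP3* lie to the right at -0.15, -0.09 and 0.79 on the y axis, and *CD300A* and *MMP9* lie at the bottom near 0 on the x axis.

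Several genes that MEF2C raised strongly in the line without ICN were not called in joint induction. *AQP4*, a water channel, read 2.06, 2.01 and 2.27 in M- and 7.08, 7.41 and 7.28 in M+, but 1.84, 1.93 and 2.04 in M_ICN+, and its departure from the sum was -5.29 (adjusted p = 8.2e-14). *FCER1A*, the α chain of the high-affinity IgE receptor, rose by 4.23 with MEF2C alone and had an effect of 0.11 in the M_ICN line (departure -4.33). *CSRP3*, a muscle LIM protein, rose from 5.01, 4.79 and 4.81 to 9.34, 9.14 and 9.24 with MEF2C alone, whereas M_ICN+ read 4.28, 3.65 and 4.0 (departure -3.58). In each of these genes the M+ arrays lay above every array of the ICN lines. *AQP4* and *FCER1A* were named for large departures without overlap, so for them this is set in part by the choice.

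*JCHAIN*, which joins polymeric immunoglobulins, and the transcriptional cofactor *LMO4* rose by 2.41 and 1.74 with MEF2C alone and had effects of -0.01 and 0.00 in the M_ICN line (departures -2.38 and -1.72). *RAG1*, a subunit of the V(D)J recombinase, differed from these. It rose with ICN by 1.76, with both by 1.73 and with MEF2C alone by 2.24, and its departure was -2.27 (adjusted p = 1.9e-07). Its uninduced level was higher in M_ICN- than in ICN- by 2.00. It was highest in M_ICN+, at 7.38, 7.12 and 6.97, against 5.25, 5.20 and 5.11 in ICN+ and 6.44, 6.51 and 6.64 in M+. The part of that starting level in the departure was not tested. Of 11 V(D)J recombination genes 0 were higher and 1 lower in the difference, *RAG2* (-0.88, with an uninduced difference of 2.80). Muscle genes had 2 higher, *CSRP3* (0.79) and *TTN* (0.52), and 2 lower, *XIRP2* (-1.74) and *NEB* (-1.63), of 39, and with centring 1 was higher. These counts are near the shares over all genes, 4.06% higher and 6.08% lower.

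*FGL2*, a fibrinogen-like protein, rose by 1.20 with ICN and by 1.85 with MEF2C but fell by 1.45 with both, from 4.50, 4.53 and 4.86 to 3.06, 3.14 and 3.33 (departure -4.49). *CD300A*, *MMP9* and *PLCB4* also departed from the sum, by -4.59, -4.39 and -4.27. In the other direction, *SVOPL*, a transporter-like protein, fell by 1.01 with MEF2C alone and rose from 7.55, 7.43 and 7.42 to 9.74, 9.87 and 9.68 with both (departure 2.89). *RGS18*, a G protein signaling regulator of blood cells, fell by 1.25 with MEF2C alone and rose by 1.88 with both (departure 2.86), from an uninduced level lower in M_ICN- than in ICN- by -1.70. *EFEMP1*, *LOC101927432*, *SLAIN1* and *CCR6* had the largest positive departures, 4.33, 4.27, 4.23 and 3.16.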

How the data were processed

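Affymetrix HG U133 Plus 2.0 arrays were hybridized with RNA from lines of LOUCY cells. The authors deposited log2 expression values made with RMA, which corrects background, gives every array 1 distribution of values and summarizes each probe set. Versions in the notes of the submitters are 1.64.0 for affy and 3.6.3 for R. RMA removes differences in total RNA and shrinks fold changes of dim probe sets. Arrays have no read depth, and their number limits the precision.

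The values were used as deposited. Of 54675 probe sets 62 controls were left out, 41097 carry 1 gene symbol in the platform annotation, 1801 several (never named) and 11777 none. By gene identifier 41043 matched the gene table used here and 0 symbols changed. Groups came from the sample labels. All 30 arrays in 10 groups were fitted in 1 model without covariates with limma 3.58.1 in R 4.3.3, with Benjamini-Hochberg adjustment over 54613 probe sets and a call at an adjusted p under 0.05. On simulated data for the difference of dox effects, 80 of 100 probe sets changed by 1 and 99 of 100 changed by 2 on the log2 scale were recovered among 54613, with 13 false calls. The study's methods name limma for 9 arrays with against 9 without dox and state no test for the ICN lines, so this model is not theirs.

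Named genes are the 12 largest differences each way, and the 6 largest each way of ICN induction, joint induction and the departure from the sum, with adjusted p under 0.05 and no overlap between groups, together with *MEF2C*, *NOTCH1* and members of 23 gene lists. Members, lists and rules were chosen with earlier results of these data known. Alternatives were leaving out dim probe sets (mean below 5), quantile normalization, centring, a trended and robust prior, the groups compared alone, the replicate number as a block, an ordinary linear model, the most variable probe set, the study's thresholds and leaving out each array. A call also made between the induced lines, or not made between the uninduced lines, was added as a rule after seeing the data. Arrays of stromal cocultures entered the model only for its estimate of spread.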

Additional observations from a re-analysis of the deposited data

Results flagged for a closer look

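The test of the difference of dox effects between the 2 ICN lines called 802 genes higher and 1202 lower, and the test of the difference between MEF2C with ICN and MEF2C alone called 430 higher and 773 lower. By the second test, in which a positive value is a dox effect above the sum of the separate effects, *EFEMP1* (4.33), *LOC101927432* (4.27), *SLAIN1* (4.23), *CCR6* (3.16), *SVOPL* (2.89) and *RGS18* (2.86) had the largest positive values, on the log2 scale. *AQP4* (-5.29), *CD300A* (-4.59), *FGL2* (-4.49), *MMP9* (-4.39), *FCER1A* (-4.33) and *PLCB4* (-4.27) had the largest negative values. *AQP4* and *FCER1A* rose with MEF2C alone, whereas the effects of MEF2C alone on *CD300A*, *MMP9* and *PLCB4* were -0.10, -0.07 and -0.14. *EFEMP1* and *RGS18* started lower in M_ICN- than in ICN-, by -5.44 and -1.70, and the part of that starting level in their values was not tested. Both tests compare different lines, in which line and construct differ together. Groups of 3 arrays are too small for a search for outlying arrays.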

How the results depend on the processing

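Each of the 24 genes named for the difference kept its direction and its side of the threshold under quantile normalization, centring, the trended and robust prior, the compared groups alone, the replicate block, the ordinary linear model, the most variable probe set and each array left out, as did the 13 that passed the filter on dim probe sets. The study's thresholds and the added rules were run on counts only, and *EFEMP1*, not called between the induced lines (0.05), fails an added rule. With 1 array left out, the genes higher in the difference numbered 615 to 806 and the lower ones 985 to 1243, and the totals were 2460 to 2775 for ICN induction, 2610 to 3054 for joint induction, 1165 to 1625 for MEF2C alone, 1001 to 1310 for the departure from the sum and 1284 to 1398 for the uninduced lines. At the study's thresholds (log2 beyond 0.6, p under 0.05, q under 0.1) the difference had 327 genes higher and 675 lower, ICN induction 790, joint induction 1061, MEF2C alone 368 and the uninduced lines 479. Of the 1202 genes lower in the difference, 799 were not called between the uninduced lines, a rule added after seeing the data, and by the other added rule 621 of the 802 higher and 998 of the 1202 lower genes were called the same way between the induced lines. Fitting the compared groups alone gave 1656 genes for ICN induction (3135 as reported), 794 for MEF2C alone (1701) and 1087 for the uninduced lines (1756). The ordinary linear model, without moderation of the variance and after Benjamini-Hochberg adjustment, gave 1172, 267 and 714. Centring gave 605 higher and 1161 lower genes in the difference. The cause of these shifts was not tested.

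Replicate numbers did not pair the arrays: over 18 pairs of arrays with the same number, deviations from the group means correlated at -0.365 to 0.187, 3 of them over 0.1, and 6 arrays matched their own number best. With the replicate number as a block the difference had 833 genes higher and 1240 lower.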
